A study of Homo sapiens with 6 samples.

Results

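Epithelial cells hold to each other through cadherins, and in the epithelial-mesenchymal transition (EMT) they lose these contacts and take on traits of mesenchymal cells. The transcription factors of the Snail, ZEB and TWIST families are known to repress E-cadherin and to drive this transition, while GRHL2 and the splicing factors ESRP1 and ESRP2 maintain the epithelial state. In squamous carcinoma, cells can also occupy states between the epithelial and the mesenchymal one. The 10 genes *CDH1*, *CDH3*, *SNAI1*, *SNAI2*, *ZEB1*, *ZEB2*, *TWIST1*, *GRHL2*, *ESRP1* and *ESRP2*, of 58884 genes in the count files, were chosen by symbol and are described here as 2 cadherins, 5 EMT transcription factors and 3 epithelial regulators.

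RNA was sequenced from HSC-4, an established human oral squamous cell carcinoma line, in 3 libraries after 24 h with 50 μM DAPT and in 3 control libraries. DAPT blocks γ-secretase, which cuts activated Notch receptors and so frees the part that acts in the nucleus. The paper gives DMSO as the vehicle of the controls and the deposit names only normal growth medium, so an effect of the vehicle cannot be told apart from that of DAPT if the controls had none. No label says whether the 3 replicates were separate cultures, and p-values then measure the spread between these libraries, which may be technical.

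The libraries held between 12276313 and 16317672 counted reads, and 3 reads, taken as the smallest signal, corresponded to 0.187 to 0.249 CPM, the reads of a gene scaled to a common library size with TMM factors. Of 15001 genes tested with edgeR's quasi-likelihood test, 5281 (35.2%) had a Benjamini-Hochberg adjusted p-value under 0.05 and are called changed, 17.2% higher and 18.0% lower with DAPT. Over these genes the log2 fold changes had a median of 0.01. With library size as the only scaling it was 0.06, and the share of calls that were higher went from 48.7% to 61.5%. The 4 Notch target genes *HES1*, *HES4*, *HEY1* and *NRARP* were called lower in the main fit and in each of the 15 alternatives. Of 8 squamous epithelial markers, *KRT5*, *KRT6A* and *TP63* were read well in every library, as the label of the line implies, while *KRT14* was at 2.98 to 3.54 CPM in the controls, and 6 of the 8 were called lower with DAPT.

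Control replicate 1 stood apart from the other 5 libraries. The summed level of 12 fibroblast markers was 877 CPM there and 292 to 297 CPM in each of the others, and 11 of the 12 were highest in it. In the other 5 libraries 6 of these markers stayed under 1 CPM, and *COL3A1*, *DCN*, *PDGFRA* and *THY1* were each at 0 in at least 1 library. *VIM*, the mesenchymal intermediate filament vimentin, was read 3849 times in control 1 and at most 31 times in any other library. Summed endothelial markers were at 1.49 CPM in control 1 and 0.65 to 1.08 CPM elsewhere, and leucocyte markers were at 12.1 CPM against 10 to 15.1 CPM, with *CLDN5* and *CD3E* at 0. Of the fibroblast markers 6 could be tested, and edgeR's main fit called none with all 6 libraries, nor did any reach an unadjusted p under 0.05. With the same libraries, 4 were called lower in a fit that is not robust, 1 with the replicate block, 1 with no filter on low counts, 2 with DESeq2 and none with limma-voom. Without control 1, edgeR called 2 higher and 1 lower, beside 18.0% and 19.1% of all tested genes. *CD14* was the only leucocyte marker called by edgeR (lower, -0.30, adjusted p = 0.0444), a call that held in 7 of 15 alternatives. The members and the counts of each gene list are therefore given with and without control 1, and genes of a list whose call differs are named. The part of the mesenchymal RNA of control 1 in a result with all 6 libraries was not tested. Which cells that RNA came from cannot be told from bulk counts. In such bulk RNA, fewer cells of a type and less RNA per cell cannot be told apart.

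**Figure D1:**
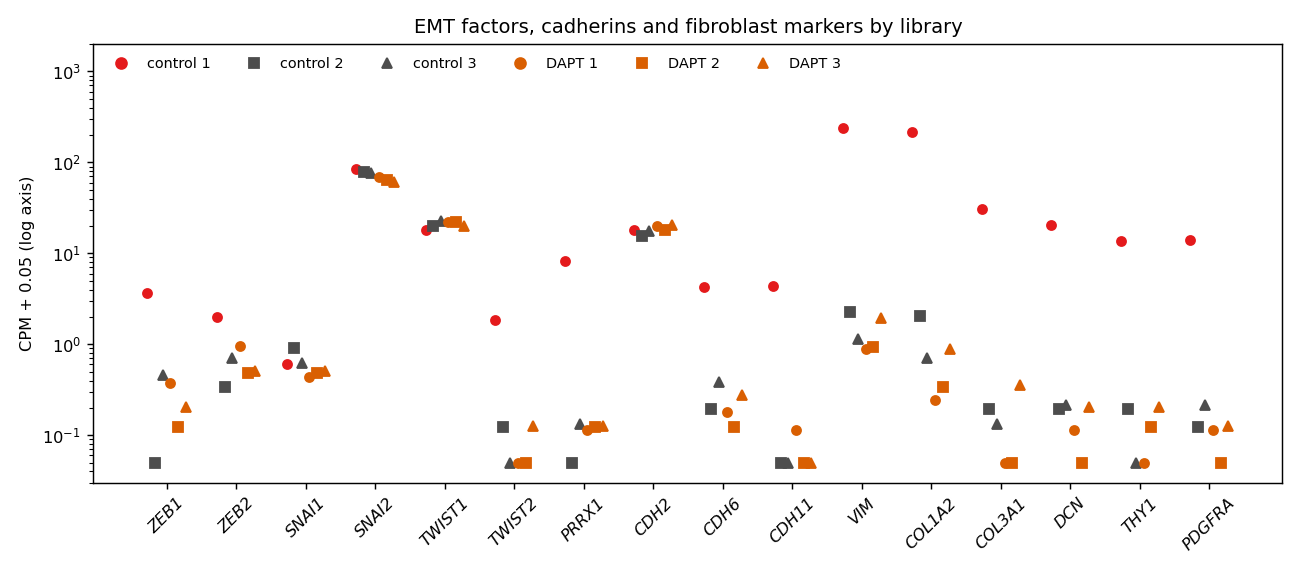
The plot of control replicate 1 gives CPM plus 0.05 on a log axis for EMT factors, other cadherins, *VIM* and fibroblast markers, with 1 point for each of the 6 libraries. *ZEB1*, *PRRX1*, *CDH11*, *VIM* and *COL1A2* stand far above the other libraries in control 1 (red), while *SNAI2*, *TWIST1* and *CDH2* lie among the other libraries or next to them.

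Per kilobase of exon, the cadherins were the most abundant members and the ZEB factors the least. In the controls *CDH3* was at 95 ± 2.46 CPM per kilobase (SD, n = 3) and *CDH1* at 83.9 ± 3.01, and the 3 values of each did not overlap. With DAPT they were at 103 ± 2.35 and 101 ± 2.32, and their ranges met. *ESRP1* followed at 49.1 ± 1.57 in the controls, then *SNAI2* at 23.5 ± 1.35 and *GRHL2* at 16.1 ± 0.199. With DAPT *SNAI2*, at 19.1 ± 1.1, lay closer to *GRHL2*, at 17.1 ± 0.379, without overlap. *TWIST1* (10 ± 1.13 in the controls) and *ESRP2* (7.59 ± 0.556) were next, and they too did not overlap there, whereas with DAPT the gap narrowed to 10.7 ± 0.603 against 9.35 ± 0.236. *SNAI1*, *ZEB1* and *ZEB2* were all under 1 CPM per kilobase in every library. With DAPT *SNAI1*, at 0.252 ± 0.0214, lay above *ZEB1* and *ZEB2* without overlap, whereas in the controls it overlapped *ZEB1* through control 1.

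**Figure D2:**
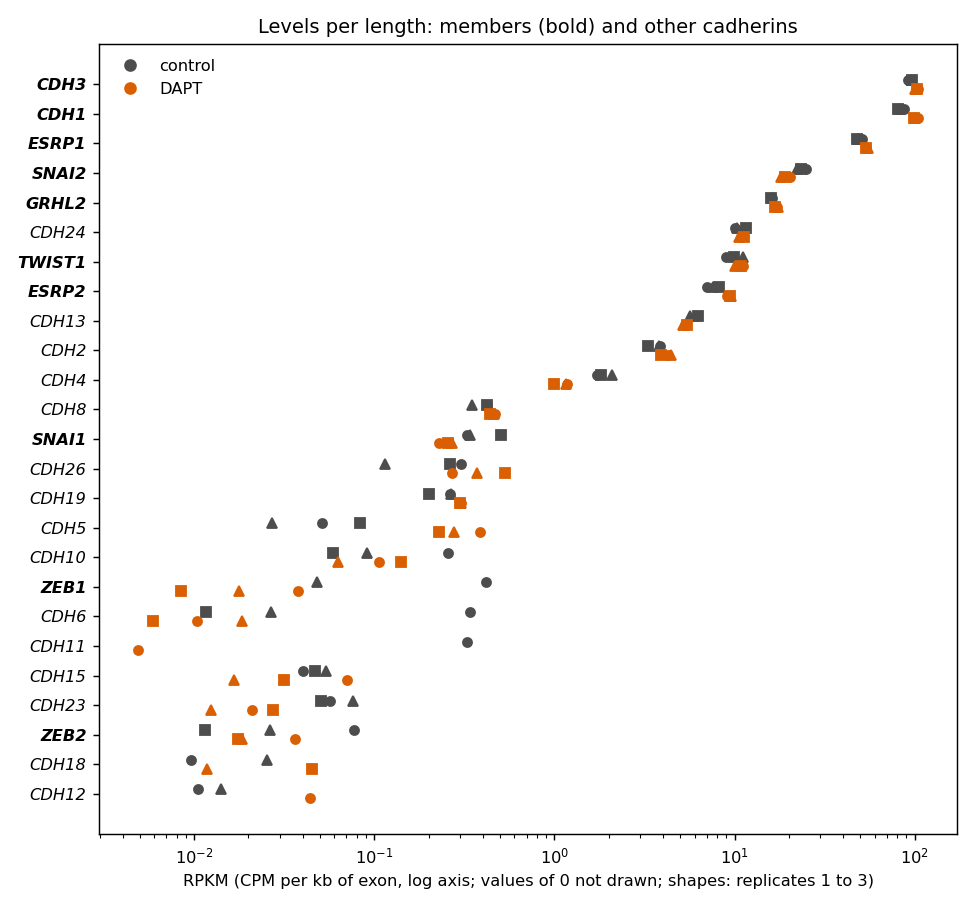
The plot of levels per length shows CPM per kilobase of exon (RPKM) on a log axis for the 10 members (bold) and other cadherins, ordered by level, with 1 point for each of the 3 control and 3 DAPT libraries. *CDH1* and *CDH3* lie near the right edge, at 83.9 or more on average, and *SNAI1*, *ZEB1* and *ZEB2* under 1, with control 1 the rightmost point of both ZEB genes.

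With DAPT, *CDH1*, *ESRP1* and *ESRP2* were called higher and *SNAI2* lower, which makes 4 of the 7 members that could be tested, beside 35.2% of all tested genes. The 3 called higher stand beside 17.2% and the 1 called lower beside 18.0%. Without control 1 the same 4 members were called in the same directions, beside 37.1% of 15162 genes. In 6 of the 7 the DAPT libraries did not overlap the controls, as in 46.3% of all tested genes. Each of the 7 had at least 260 reads in every library, whereas *SNAI1*, *ZEB1* and *ZEB2* did not pass the filter on low counts. All changes were small, between 1.1-fold and 1.23-fold where called, and the median log2 fold change over the 7 was 0.12.

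**Figure D3:**
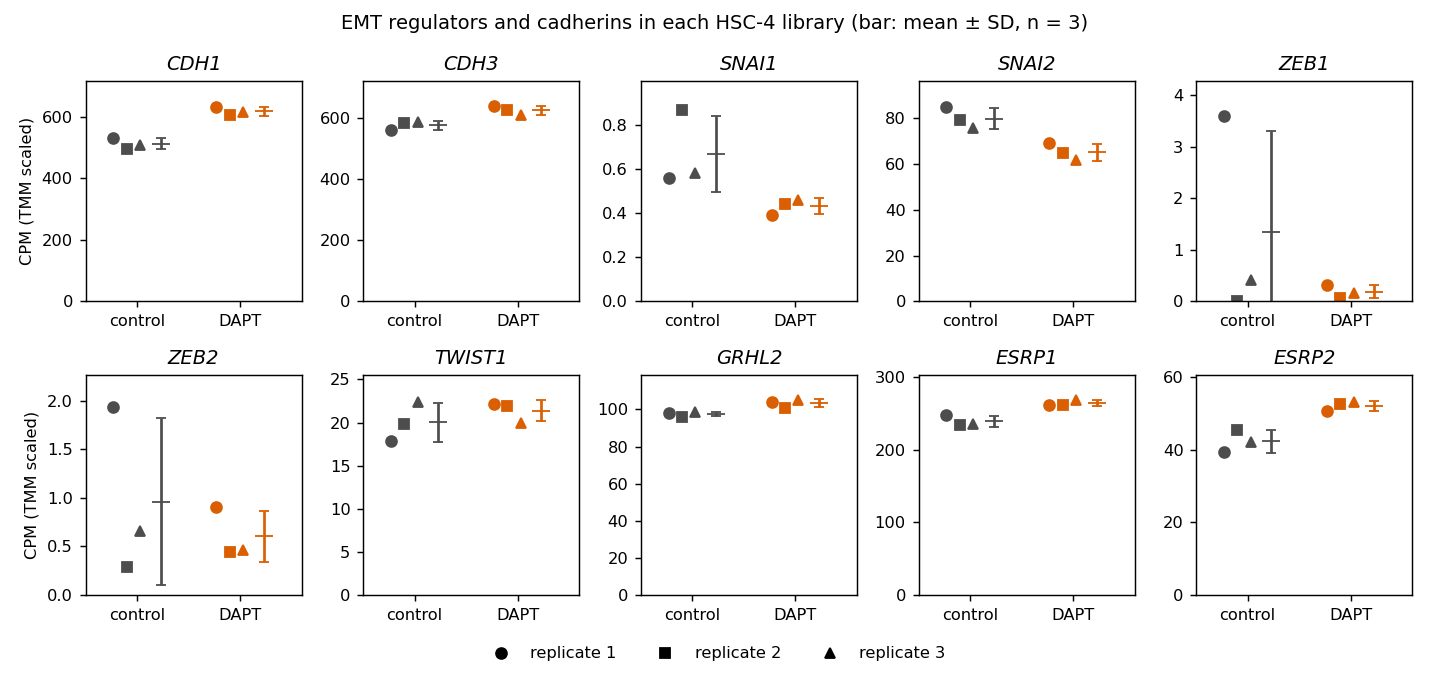
The plots by library show the CPM of each member, on its own axis, in the 3 control and 3 DAPT libraries, with bars for the mean and SD (n = 3), of which the lower control bar of *ZEB1* is cut at 0. The DAPT points lie above all control points for *CDH1*, *CDH3*, *GRHL2*, *ESRP1* and *ESRP2* and below them for *SNAI2* and *SNAI1*.

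*CDH1* encodes E-cadherin, the main adhesion molecule of epithelial adherens junctions. Its gene (GRCh38, chromosome 16, 68737292 to 68835541, + strand) was at 532, 496 and 509 CPM in control libraries 1 to 3 and at 632, 604 and 615 CPM in DAPT libraries 1 to 3. Every DAPT library was above every control, and the log2 fold change was 0.27 (SE 0.05, 95% interval 0.17 to 0.37, adjusted p = 0.000139, edgeR), or 1.20-fold. Without control 1 it was 0.30 (adjusted p = 6.29e-06), and *CDH1* was called higher in each of the 15 alternatives.

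*CDH3*, the gene of P-cadherin, which is found in the basal layer of stratified epithelia, ends 14.7 kb before *CDH1* starts (chromosome 16, 68636189 to 68722616, + strand). It was at 560.4, 584 and 588 CPM in the controls and at 641, 627 and 612 CPM with DAPT. The groups did not overlap, but the log2 fold change of 0.12 (SE 0.05, 95% interval 0.02 to 0.21) did not pass after adjustment (adjusted p = 0.0521, edgeR). The value was 0.10 without control 1 (adjusted p = 0.0785). DESeq2 (0.12, adjusted p = 0.0296), limma-voom (0.12, adjusted p = 0.0405) and scaling by library size alone (0.17, adjusted p = 0.00658) called it higher.

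The ratio of *CDH1* to *CDH3* per kilobase was 0.945, 0.846 and 0.861 in the controls and 0.982, 0.958 and 1.00 with DAPT. The values did not overlap, and an exact two-sided permutation test gave p = 0.1, the smallest p that 3 against 3 libraries allow. Over the 5 ratios that were compared, the adjusted p was 0.25.

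Of the nearest tested genes on either side of *CDH1*, *TANGO6* was at a log2 fold change of -0.15 (adjusted p = 0.274) and *CDH3-AS1*, which lies within *CDH3* and is named as its antisense RNA, at 0.30 (adjusted p = 0.472). *HAS3*, a hyaluronan synthase gene farther along, was called lower and fell from a mean of 29.3 to 18.7 CPM (log2 fold change -0.64, SE 0.08, adjusted p = 2.59e-06). *ESRP2* lies on the same chromosome arm, 398 kb before *CDH3*.

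Of the EMT transcription factors, *SNAI2* and *TWIST1* were read well and the other 3 hardly at all. *SNAI2* encodes Slug, a zinc finger repressor of E-cadherin that is also expressed in basal cells of squamous epithelium (chromosome 8, 48917598 to 48921740, - strand). It was at 84.7, 79.1 and 75.6 CPM in the controls and at 69.0, 64.6 and 61.5 CPM with DAPT, so that every DAPT library lay below every control. *SNAI2* fell by 0.30 on the log2 scale (SE 0.06, adjusted p = 0.000602, edgeR), with a 95% interval of -0.42 to -0.17, and was 1.23-fold lower. Control 1 was the highest of the 6 libraries, and without it the log2 fold change was -0.25 (adjusted p = 0.00159), a call that held in all 15 alternatives.

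*CDH1* and its repressor *SNAI2* moved in opposite directions. The ratio of *CDH1* to *SNAI2* per kilobase was 3.50, 3.49 and 3.74 in the controls and 5.1, 5.2 and 5.57 with DAPT. Since every DAPT library was above every control for *CDH1* and below every control for *SNAI2*, this ratio could not overlap between the groups. Its exact two-sided permutation p of 0.1, the smallest possible, was thereby fixed and adds nothing to the values of each gene. The adjusted p was 0.25 over the 5 ratios.

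*TWIST1* encodes a basic helix-loop-helix factor of mesoderm and neural crest (chromosome 7, 19020991 to 19117636, - strand). Its levels were 17.9, 19.8 and 22.4 CPM in the controls and 22.2, 21.9 and 20.0 CPM with DAPT. The groups overlapped, and the log2 fold change was 0.10 (SE 0.09, 95% interval -0.08 to 0.29, adjusted p = 0.396, edgeR). Without control 1, the library in which *TWIST1* was lowest, it was 0.03 (adjusted p = 0.853), and none of the 15 alternatives called it.

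*SNAI1*, the gene of Snail (chromosome 20, 49982980 to 49988886, + strand), had 9, 12 and 7 reads in the controls and 6 reads in each DAPT library. These are 0.56, 0.867 and 0.58 CPM against 0.39, 0.439 and 0.461 CPM, so the groups did not overlap, but the gene was too weakly read for the test. With no filter on low counts, edgeR gave a log2 fold change of -0.63 (adjusted p = 0.459). A difference was not detectable at this depth. Slug was the dominant Snail family transcript, with a *SNAI2* to *SNAI1* ratio per kilobase of 75.8, 45.8 and 65.4 in the controls and 88.8, 73.9 and 67.0 with DAPT. These ratios overlapped, with an exact two-sided permutation p of 0.4.

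*ZEB1* and *ZEB2*, the zinc finger homeobox repressors of E-cadherin, were the members that control 1 set apart. *ZEB1* (chromosome 10, 31318495 to 31529814, + strand) had 58 reads in control 1, 0 in control 2 and 5 in control 3, and 5, 1 and 2 reads with DAPT. Control 1 was 8.72-fold above the highest other library in CPM, and the other 5 libraries lay at 0 to 0.414 CPM, near the level of 3 reads. *ZEB2* (chromosome 2, 144364364 to 144524583, - strand) had 31, 4 and 8 reads in the controls and 14, 6 and 6 with DAPT, and control 1 was 2.12-fold above the next library.

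Neither ZEB gene passed the filter, with or without control 1. Without any filter, edgeR gave log2 fold changes of -2.86 for *ZEB1* (adjusted p = 0.472) and -0.70 for *ZEB2* (adjusted p = 0.274). Those values rest on the library in which fibroblast markers were high. *SNAI2* and *TWIST1*, which fibroblasts can also express, did not stand out there: control 1 was 1.07-fold the highest other library for *SNAI2* and 0.799-fold for *TWIST1*.

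The 3 epithelial regulators were all higher in every DAPT library than in any control. *GRHL2* encodes a grainyhead-like factor that activates epithelial junction genes, *CDH1* among them (chromosome 8, 101492432 to 101669726, + strand). It was at 98.0, 96.1 and 98.4 CPM in the controls and at 104, 101 and 105 CPM with DAPT. This log2 fold change of 0.09 (SE 0.05, 95% interval -0.02 to 0.19) did not pass (adjusted p = 0.195, edgeR), with or without control 1 (0.09, adjusted p = 0.161). Only scaling by library size alone called it higher (0.13, adjusted p = 0.0427).

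*ESRP1* and *ESRP2* encode RNA-binding proteins that impose the epithelial splice forms of *FGFR2*, *CD44* and other transcripts. *ESRP1* (chromosome 8, 94641074 to 94707466, + strand) was at 248, 234 and 236 CPM in the controls and at 262, 262 and 269 CPM with DAPT. Its log2 fold change was 0.14 (SE 0.05, 95% interval 0.04 to 0.24, adjusted p = 0.0249, edgeR) and 0.17 without control 1 (adjusted p = 0.00412). The call depended on single libraries: it was lost without control 2 (0.12, adjusted p = 0.127), control 3 (0.13, adjusted p = 0.114), DAPT 2 (0.15, adjusted p = 0.0573) or DAPT 3 (0.13, adjusted p = 0.0947).

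*ESRP2* (chromosome 16, 68229111 to 68238102, - strand) was at 39.2, 45.4 and 42.1 CPM in the controls and at 50.5, 52.4 and 53.1 CPM with DAPT. Control 1 was the lowest of the 6 libraries. The log2 fold change was 0.30 (SE 0.07, 95% interval 0.16 to 0.44, adjusted p = 0.00166, edgeR), or 1.23-fold, and 0.25 without control 1 (adjusted p = 0.00373). All 15 alternatives called it higher. Of its exon length, 1.96% is shared with another gene on the same strand, where reads are not counted for either. *ESRP1* remained the dominant of the pair, at 5.89 to 7.23 times the level of *ESRP2* per kilobase in the controls and 5.71 to 5.92 times with DAPT, ranges that overlap (exact two-sided permutation p = 0.2).

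**Figure D4:**
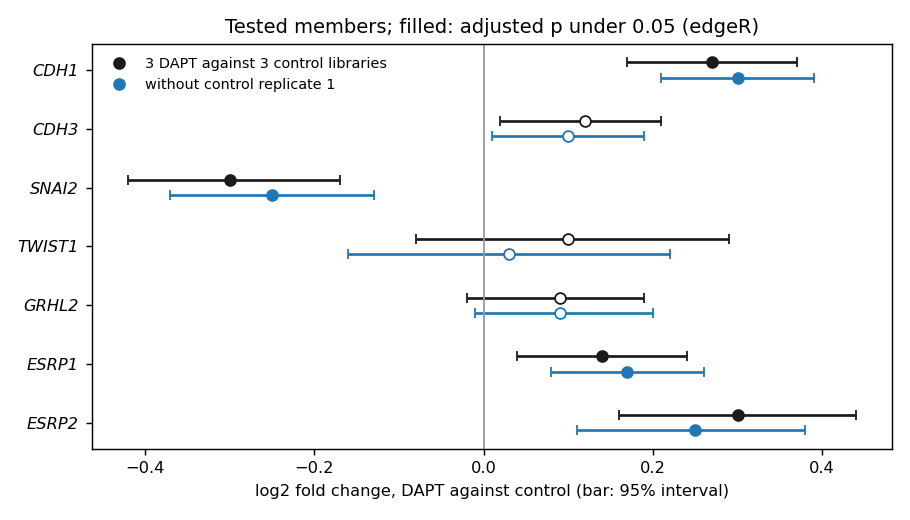
The plot of member changes shows the log2 fold change of DAPT against control with its 95% interval for the 7 tested members, with all 6 libraries and without control 1. With all 6 libraries the intervals of *CDH1*, *CDH3*, *ESRP1* and *ESRP2* lie above 0, that of *SNAI2* lies below 0, and those of *TWIST1* and *GRHL2* include 0.

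The partners of the cadherins at the adherens junction moved in both directions. Of 13 partners, all tested, 2 were called higher and 2 lower, beside 17.2% and 18.0% of all tested genes, and their median log2 fold change was -0.03. *NECTIN1*, a nectin adhesion molecule, was at 372, 404 and 413 CPM in the controls and at 281, 269.9 and 277 CPM with DAPT (log2 fold change -0.52, adjusted p = 4.44e-08). *CTNNB1*, the gene of β-catenin, which binds the cadherin tail, was also lower (-0.19, adjusted p = 0.00428). *AFDN*, the nectin-binding scaffold afadin, and *AJUBA*, a LIM protein of the junction, were higher, by 0.26 (adjusted p = 0.000707) and 0.42 (adjusted p = 3.58e-06). Without control 1 these 4 were called in the same directions, and *JUP*, the gene of plakoglobin, was called lower in addition (-0.19, adjusted p = 0.00313). The shares of all tested genes were then 18.0% higher and 19.1% lower.

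Of 21 other classical and related cadherin genes, 9 could be tested and 6 had under 3 reads in every library. Among the 9, 1 was called higher and 3 lower, beside 17.2% and 18.0% of all tested genes. Without control 1 there were 2 higher and 3 lower, beside 18.0% and 19.1% of all tested genes. *CDH26* was then called in addition (1.00, adjusted p = 0.0321). *CDH2*, the gene of N-cadherin, which mesenchymal cells carry in place of E-cadherin, was at 17.9, 15.4 and 17.6 CPM in the controls and at 19.7, 18.1 and 20.6 CPM with DAPT. *CDH2* was higher in every DAPT library than in any control. Its log2 fold change was 0.20 (SE 0.09), which did not pass (adjusted p = 0.0956), nor did 0.24 without control 1 (adjusted p = 0.0572). Only scaling by library size alone called it higher. Per kilobase, *CDH1* was 21.9 to 24.5 times as abundant as *CDH2* in the controls and 22.7 to 25.3 times with DAPT (exact two-sided permutation p = 0.4). *CDH4*, the gene of R-cadherin, was called lower in every alternative (-0.75, SE 0.11, adjusted p = 2.44e-05). *CDH5*, the cadherin of endothelium, was at 0.166 to 0.506 CPM in the controls and 1.39 to 2.34 CPM with DAPT (2.42, SE 0.39, adjusted p = 4.93e-05). The controls rest on 5, 7 and 2 reads, near the smallest signal of 3 reads. With at least 10 counts required in every library *CDH5* was not tested. The endothelial markers summed to no more than 1.49 CPM in any library. *CDH6* and *CDH11*, which were not tested, had 68 and 70 reads in control 1 and at most 4 and 1 in any other library.

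Of 11 other transcription factors linked with EMT, 8 could be tested, 5 were called lower and 1 higher, beside 18.0% and 17.2% of all tested genes. *SOX4*, a factor that acts with TGF-β signalling, fell from 39.7, 38.0 and 43.7 CPM in the controls to 24.9, 22.4 and 24.5 CPM with DAPT (log2 fold change -0.76, SE 0.08, adjusted p = 1.5e-07). The forkhead gene *FOXC2* (-1.13, adjusted p = 0.00431) and the E protein genes *TCF4* (-0.88, adjusted p = 0.000431) and *TCF3* (-0.27, adjusted p = 0.000938) were also lower. *FOXC1* was higher (0.30, adjusted p = 0.00286). Without control 1, 5 were lower and 2 higher, beside 19.1% and 18.0% of all tested genes. *KLF8* was then called in addition (0.74, adjusted p = 0.0434). *TWIST2* and *PRRX1*, which were not tested, had 29 and 132 reads in control 1 and at most 1 in any other library.

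Epithelial transcription factors other than *GRHL2* included genes called in both directions, 3 of 10 higher and 4 lower, beside 17.2% and 18.0% of all tested genes. Without control 1 there were 2 higher and 4 lower, beside 18.0% and 19.1% of all tested genes. *KLF4*, a factor of epithelial differentiation, rose from 13.1, 12.9 and 12.9 CPM to 22.3, 23.5 and 22.1 CPM (0.81, SE 0.09, adjusted p = 2.17e-07). *ELF3*, an epithelial ETS factor, rose by 0.62 (adjusted p = 2.72e-08). *OVOL1*, a zinc finger factor that represses *ZEB1*, was called with all libraries (0.26, adjusted p = 0.02) but not without control 1 (0.23, adjusted p = 0.0549), and the call was also lost with DESeq2 and without control 2, DAPT 2 or DAPT 3. *GRHL3*, a paralogue of *GRHL2* active in the epidermis, fell by 1.15 on the log2 scale (adjusted p = 0.000578) and *TP63*, the master factor of squamous basal cells, by 0.58 (adjusted p = 2.82e-09). *KLF5* was also lower (-0.22, adjusted p = 0.00158).

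Of 17 genes of the epithelial surface and of cell polarity, 7 were called higher and none lower by edgeR with all libraries, none lower at an unadjusted p under 0.05 and none lower by DESeq2 or limma-voom, beside 17.2% higher and 18.0% lower among all tested genes. The summed level of the list was lowest in control 1, at 3149 CPM against 3416 to 3613 CPM elsewhere. Without that library 5 were higher and 2 lower, beside 18.0% and 19.1% of all tested genes. The median log2 fold change of the list was 0.10 with all libraries and 0.03 without control 1. *MARVELD2*, the gene of tricellulin (0.45, adjusted p = 7.55e-06), *LLGL2*, a polarity gene (0.35, adjusted p = 0.0071), *MAL2* (0.31, adjusted p = 3.04e-05), *EPCAM*, an epithelial adhesion molecule (0.27, adjusted p = 0.000119), and *MAP7* (0.20, adjusted p = 0.0155) were higher in both fits, although *MAP7* was not called without control 2 or without DAPT 1. *CRB3* (0.30) and *SPINT1* (0.15) were not called without control 1, and *PRSS8* (-0.15) was called only without it. The calls of *CRB3* and *SPINT1* were also lost without some other libraries, among them DAPT 2.

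Of 13 mesenchymal genes that carcinoma cells can express, 7 were called lower and none higher by edgeR, with a median log2 fold change of -0.62. None was higher at an unadjusted p under 0.05, and none by DESeq2, which called 9 lower, or limma-voom, which called 10 lower. The shares of all tested genes were 18.0% lower and 17.2% higher. *LOX*, a collagen cross-linking oxidase, fell from 92.0, 86.4 and 89.7 CPM to 38.8, 42.5 and 37.8 CPM (-1.17, SE 0.06, adjusted p = 2.61e-12). *TGFBI* fell by 0.60 (adjusted p = 2.26e-09), *TNC* by 0.34 (adjusted p = 2.8e-05) and *MMP2* by 0.93 (adjusted p = 0.00143). *MMP2* was highest in control 1, at 83.1 CPM against 61.6 and 59.1 CPM in the other controls, and without it the log2 fold change was -0.75. Without control 1, *FN1* (-0.31), *TAGLN* (-0.91) and *S100A4* (-0.51) were called in addition, and the median was -0.50. The share of all tested genes called lower was then 19.1%. *VIM* was not called with control 1 or without it (-0.50, adjusted p = 0.328).

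**Figure D5:**
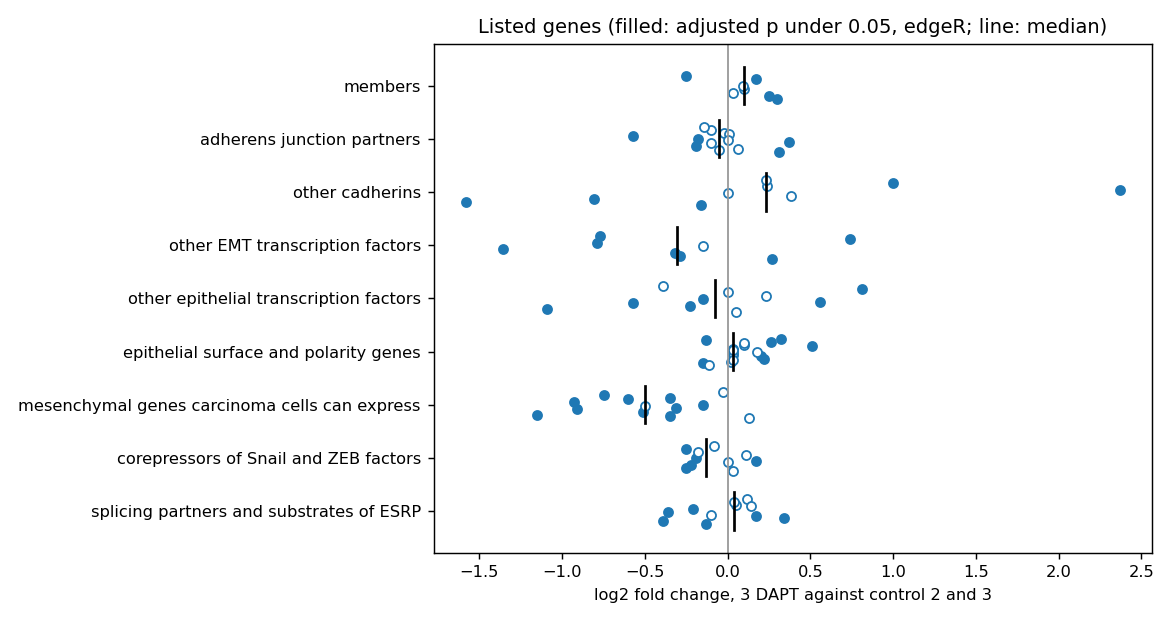
The plot of lists shows the log2 fold change of each tested gene, 3 DAPT libraries against controls 2 and 3, for the members and 8 lists, with called genes filled and a line at each median. Of the 13 mesenchymal genes 10 are filled points below 0, while called genes of each other list lie on both sides of 0.

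The miR-200 family and miR-205 are known to bind *ZEB1* and *ZEB2* transcripts and to hold them down in epithelial cells. They are shown here as the short RNAs that link the host genes to the ZEB members, from RefSeq (GRCh38.p14), each 5′ to 3′ with its seed, bases 2 to 8, in capitals:
hsa-miR-141-3p: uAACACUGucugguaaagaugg
hsa-miR-200a-3p: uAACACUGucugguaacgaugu
hsa-miR-200b-3p: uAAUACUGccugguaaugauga
hsa-miR-200c-3p: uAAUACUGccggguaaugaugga
hsa-miR-429: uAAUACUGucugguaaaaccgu
hsa-miR-205-5p: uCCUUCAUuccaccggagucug

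By seed, miR-141 and miR-200a form 1 group, and miR-200b, miR-200c and miR-429 another. The libraries were not made to measure such short RNAs, so the levels of the mature forms are not known here. Only host and hairpin genes were counted, and *MIR200A*, *MIR200B* and *MIR429* had at most 5 reads in any library. Of 8 host and hairpin genes, 3 could be tested and 1 was called, lower with DAPT, beside 18.0% of all tested genes. *MIR205HG*, the host gene of miR-205 on chromosome 1, was at 197, 179.5 and 189 CPM in the controls and at 148, 156 and 153 CPM with DAPT. It was lower in every DAPT library and was called in all 15 alternatives (-0.31, SE 0.05, adjusted p = 6.87e-05). *MIR200CHG*, the host gene of miR-200c and miR-141 on chromosome 12, was at 4.67, 4.33 and 4.39 CPM in the controls and at 4.22, 3.95 and 4.15 CPM with DAPT (-0.12, adjusted p = 0.582). Its groups did not overlap, but the difference did not pass. The hairpin gene *MIR205*, with 13 to 19 reads per library, was not called either (0.12, adjusted p = 0.791). Of its exon length, 35.5% is shared on the same strand, where reads are not counted for either gene.

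Splicing factors and substrates linked with ESRP proteins were called in both directions, 1 of 11 higher and 4 lower, beside 17.2% and 18.0% of all tested genes. Scaled by library size alone, 3 were higher and 2 lower. Without control 1, 2 were higher and 4 lower, beside 18.0% and 19.1% of all tested genes. *RBFOX2* was then called in addition (0.17, adjusted p = 0.00951). *FGFR2*, whose exon choice ESRP proteins set, fell from 86.7, 87.0 and 88.1 CPM to 69.7, 67.9 and 62.8 CPM (-0.38, SE 0.06, adjusted p = 1.41e-05). *HNRNPM*, a factor that opposes ESRP1 at shared sites, fell by 0.34 (adjusted p = 1.65e-05), and *CD44* and *PTBP1* each by 0.15 (adjusted p = 0.0198 and 0.0368). The call of *PTBP1* held in 8 of 15 alternatives and was lost without control 2, control 3, DAPT 2 or DAPT 3, and that of *CD44* held in 12 and was lost without DAPT 2 or DAPT 3. *MBNL2* rose by 0.30 (adjusted p = 0.000154). Counts per gene do not show which splice forms were present.

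Of 10 corepressor genes through which Snail and ZEB factors act, 4 were called lower and 1 higher, beside 18.0% and 17.2% of all tested genes. The counts were the same without control 1, beside 19.1% and 18.0%. *HDAC2* was at 173, 164 and 161 CPM in the controls and at 139, 135 and 136 CPM with DAPT (-0.28, SE 0.05, adjusted p = 0.000161). The Polycomb methyltransferase gene *EZH2* (-0.25, adjusted p = 0.00517), the demethylase gene *KDM1A* (-0.23, adjusted p = 0.00063) and *HDAC1* (-0.22, adjusted p = 0.00329) were lower. *CTBP2*, a partner of ZEB1 in repression, was higher (0.18, adjusted p = 0.00979). Of 5 genes whose products mark Snail proteins for degradation, 3 were called higher, beside 17.2% of all tested genes: the kinase gene *GSK3B* (0.15, adjusted p = 0.0223) and the ubiquitin ligase genes *BTRC* (0.18, adjusted p = 0.0291) and *FBXL14* (0.29, adjusted p = 0.0359). *FBXL14* was not called without control 1 (0.17, adjusted p = 0.194), where *FBXO11* took its place (0.18, adjusted p = 0.00868). The share of all tested genes called higher was then 18.0%. The count of 3 fell to 1 with DESeq2 and without control 2, control 3, DAPT 1 or DAPT 2, and to 0 without DAPT 3.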

How the data were processed

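The authors trimmed single-end reads with Trim Galore and mapped them to GRCh38 with HISAT2. They deposited, per library, raw read counts of each gene's exons, made per the file headers with featureCounts 1.6.3 on the gene's own strand and Ensembl release 96, without normalization. Symbols matched 58472 of 58884 gene identifiers, and coordinates are those of the count files.

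DAPT and control libraries were compared with edgeR 4.0.16 in R 4.3.3: TMM normalization, a minimum count of 10 in its filter by group, the robust quasi-likelihood F test, Benjamini-Hochberg adjustment over 15001 genes and a threshold of 0.05. Standard errors and 95% intervals follow from the test statistic. CPM values are TMM-scaled, and levels between genes are CPM per kilobase of exon. Totals of 12276313 to 16317672 reads limit precision for weakly read genes. The limit of 3 reads covers counting error only. Alternatives were DESeq2 1.42.0, limma-voom 3.58.1, other scalings and filters, a non-robust fit, the replicate block and each library left out.

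Named are the 10 members and, of each list, the called genes with the largest changes, up to 5 in each direction, and its defining genes. Members and lists were chosen with earlier results of these data known. The lists were written from general knowledge. The fit was tested on simulated counts. Some listed genes are not reported here by name.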

Additional observations from a re-analysis of the deposited data

How the results depend on the processing

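The 4 calls among the members became 5 with DESeq2 and with limma-voom, 6 with scaling by library size alone, and 3 to 4 when 1 library was left out. No called member or listed gene had the other sign in any alternative. The count over all genes lay between 3619 (DESeq2) and 5618, and at 4174 to 5618 with 1 library left out. The deviations of same-numbered libraries had correlations of 0.0173, 0.0252 and 0.00382 across genes. These values show little shared deviation, but with 3 libraries per group they cannot exclude that the numbers pair the libraries. A replicate block gave 4 member calls and 5295 calls over all genes. Counts of list calls moved by more than 1.5 times in 6 lists: the leucocyte markers in 8 alternatives (from 1 to 0), the Snail turnover genes in 6 (from 3 to 1 or 0), the fibroblast markers in 5 (from 0 to as many as 4), the other cadherins in 2 (from 4 to 2, with DESeq2 and with at least 10 counts in every library), the splicing list in 2 (from 5 to 3, without DAPT 2 or without DAPT 3) and the mesenchymal genes in 1 (from 7 to 11, in a fit that is not robust). *SNAI1*, *ZEB1* and *ZEB2* are limited by depth, with at most 14 reads in any library but control 1. The cause of these shifts was not tested.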

Other observations

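Among the tested genes nearest to members that were not called or not tested, some were called, as were 35.2% of all tested genes. Those named here were picked after their values were seen, and a local pattern was not tested. *HDAC9*, a histone deacetylase gene that ends before *TWIST1*, was at 69.4, 65.6 and 63.8 CPM in the controls and at 86.7, 87.0 and 88.3 CPM with DAPT (log2 fold change 0.40, SE 0.05, adjusted p = 7.37e-06, edgeR). *GTDC1*, whose start lies 426 kb from that of *ZEB2*, rose by 0.54 (SE 0.12, adjusted p = 0.00176). *KYNU*, the kynureninase gene on the same side at 1487 kb, fell by 0.40 (SE 0.05, adjusted p = 2e-06). *KIF5B*, a kinesin gene that starts 691 kb beyond the start of *ZEB1*, was at 276, 252 and 258 CPM in the controls. With DAPT it was at 318, 317 and 315 CPM (0.27, adjusted p = 0.000162).

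*ZEB1-AS1*, a noncoding RNA gene whose annotated span (chromosome 10, 31206278 to 31320447) overlaps the start of *ZEB1*, was read in every library although *ZEB1* was near 0 in 5 of them. It was at 5.36, 3.83 and 3.89 CPM in the controls and at 3.57, 4.39 and 3.76 CPM with DAPT. The groups overlapped (log2 fold change -0.17, SE 0.18, adjusted p = 0.477), and control 1 was the highest library here too.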
